A study of Saccharomyces cerevisiae with 24 samples.

Results

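DMS reactivity of pre-40S ribosomal RNA was compared between 3 libraries from cells with the Rrp5_mL form of Rrp5 (mL) and 3 libraries from cells with wild-type Rrp5 (WT). These are 6 of the 24 libraries of the series, chosen as the treated libraries of the pre-40S experiment. Within them, A and C of the RDN37 transcript were kept where the effective depth was at least 50 in every library. This left 3041 of 3131 A and C, of which 1784 are A and 1257 are C. Every group of this comparison carries H375A beside its form of Rrp5, was grown in rich medium to mid-log phase, and was purified through tagged Utp9. Particles then received 1% dimethyl sulfate (DMS) for 5 min at 30 °C. For every group the labels also list 800 mM HEPES, 500 mM NaCl, 50 mM magnesium acetate and 0.2 µM RNase P RNA. The untreated libraries of the same experiment, 3 with WT and 3 with mL, served as the background. Their median effective depth was 54, 610 and 402 in WT replicates 1 to 3 and 350, 358 and 558 in mL replicates 1 to 3. Untreated WT replicate 1 held 1250 mutations, and 3883 of its positions reached a depth of 50. Its rates at most single bases therefore rest on few reads. Untreated WT replicate 2 held 249088 mutations, and its mean depth of 5400 was far above its median. DMS-treated libraries of strain BY4741, 3 in all, gave rates in mature ribosomes. The labels do not say what mL stands for or which protein has H375A.

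DMS methylates the Watson-Crick face of unpaired and unprotected A and C, and reverse transcription past such a base leaves a mutation in the cDNA. A higher mutation rate therefore reports a base that is more open to the reagent. RDN37 is the polymerase I transcript of budding yeast, made from the repeated rDNA genes of chromosome XII, and it holds the 5′ external transcribed spacer (5ETS in site names), 18S, ITS1, 5.8S, ITS2, 25S and the 3′ external transcribed spacer. Rrp5 is an RNA-binding protein with a row of S1 domains that is needed for the early cleavages that free 18S and for a cleavage in ITS1 on the way to 5.8S and 25S. Utp9 belongs to the UTP-A complex, which assembles on the 5′ external transcribed spacer at the start of small-subunit formation. The comparison asks how the Rrp5 change alters the folding of these particles.

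The stretches on which the results turn are shown first, as RNA letters from the deposited profiles, 5′ to 3′ and numbered from the first base of their own region. In the first 3, capitals mark the bases whose reactivity differed and the neighbours described with them.
5ETS 441 to 480: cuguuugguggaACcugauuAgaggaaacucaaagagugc
25S 1373 to 1413: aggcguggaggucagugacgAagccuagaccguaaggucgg
25S 3316 to 3356: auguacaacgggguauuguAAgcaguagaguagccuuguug
The next pair are the windows of 40 nt with the smallest p-values, and capitals mark the A and C that had enough mutations for a test of their own.
25S 1550 to 1589: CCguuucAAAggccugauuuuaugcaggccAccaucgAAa
25S 3030 to 3069: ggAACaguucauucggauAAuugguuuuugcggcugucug
The last stretch surrounds a base that was also mutated without DMS, in capitals.
25S 1678 to 1718: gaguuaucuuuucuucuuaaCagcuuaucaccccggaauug

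Depth set how fine a difference could be seen. The median effective depth per nucleotide was 377, 310 and 194 in WT replicates 1 to 3 and 198, 505 and 330 in mL replicates 1 to 3. The libraries held 24821, 23878 and 17041 mutations with WT and 16307, 41788 and 30783 with mL. Of the 3041 bases 1124 were tested one by one, because their mutations in the 6 libraries summed to 30 or more and their treated rate was at least 2 times the untreated one. Of these 394 lay in 18S, 496 in 25S, 149 in the 5′ external transcribed spacer, 39 in ITS1, 29 in 5.8S and 17 in ITS2. Rates were divided by a library factor, the typical rate of that library over the tested sites, so a difference is relative to the typical tested site. The factors were 0.795, 0.962 and 1.09 with WT and 1.04, 1.04 and 1.12 with mL, so WT replicate 1 stood apart with the lowest rates. The correlation of log2 rates over 1106 sites was 0.655 to 0.768 between libraries of 1 group and 0.621 to 0.743 between groups, as a description of libraries that share the same sites.

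Read depth along RDN37 was compared relative to 18S in the treated libraries. With mL the 5′ external transcribed spacer was read more deeply relative to 18S than with WT. Its mean depth over the mean 18S depth was 1.36, 1.63 and 2.03 in the WT libraries and 2.20, 2.26 and 2.59 in the mL libraries. The groups did not overlap, and WT replicate 3 came closest to mL. Since the values are ratios to 18S, more spacer per particle and another mixture of particles cannot be told apart.

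In bins of 100 nt all 7 bins of the 5′ external transcribed spacer were higher with mL, with a median log2 difference of 0.51 against 0.10 over all 67 bins. Of these 7 bins 6 had an unadjusted limma p under 0.05 and 4 were separated, meaning that every library of one group lay above every library of the other. Of all bins 31.3% had such a p, 26.9% higher and 4.48% lower with mL, and 32.8% were separated, 26.9% higher and 5.97% lower. The bin 5ETS 101 to 200 stood at 1.88, 2.03 and 3.53 times the 18S depth with WT and at 3.73, 4.40 and 5.06 times with mL. Its log2 difference was 0.88 with a standard error (SE) of 0.228 and a limma adjusted p of 0.0999 (n = 3). This bin was the widest apart of the spacer, and the groups were separate although WT replicate 3 lay near the lowest mL library. The next bin downstream, 5ETS 201 to 300, differed by 0.55 (SE 0.148, limma adjusted p = 0.0999). The very start of the transcript, 5ETS 1 to 100, differed by 0.16 (SE 0.139, limma adjusted p = 0.461), and there the groups overlapped. Without WT treated replicate 3 limma called 10 bins, 9 higher and 1 lower with mL, and 6 of them were in this spacer. With any of the other 5 libraries left out it called 0 bins.

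The bin called with all 6 libraries lay in 25S, which belongs to the large subunit. It made up 1.49% of the 67 bins. At 25S 1950 to 2049 the depth was 0.594, 0.551 and 0.665 times that of 18S with WT and 0.835, 0.902 and 1.07 times with mL. Every mL library was above every WT library (log2 difference 0.63, SE 0.125, n = 3, limma adjusted p = 0.0484). Without DMS the same bin stood at 0.287, 0.0184 and 0.470 with WT and at 0.451, 0.510 and 0.669 with mL, where the groups overlapped. The untreated ratios are not comparable with the treated ones, because the deep start of 18S raises the untreated 18S mean. In untreated WT replicate 2 that start stood at 15.1 times the 18S mean. Over all of 25S 28 of 34 bins were higher with mL, with a median of 0.15. The largest differences in the other direction were -0.40 at 25S 350 to 449 (SE 0.175, limma adjusted p = 0.156), -0.30 at 18S 1201 to 1300 (SE 0.159, limma adjusted p = 0.234) and -0.29 at 25S 1050 to 1149 (SE 0.136, limma adjusted p = 0.195), the last of which was separated. No bin lower with mL passed the test. Neighbouring bins share reads of 100 bp and are not independent of each other.

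**Figure D1:**
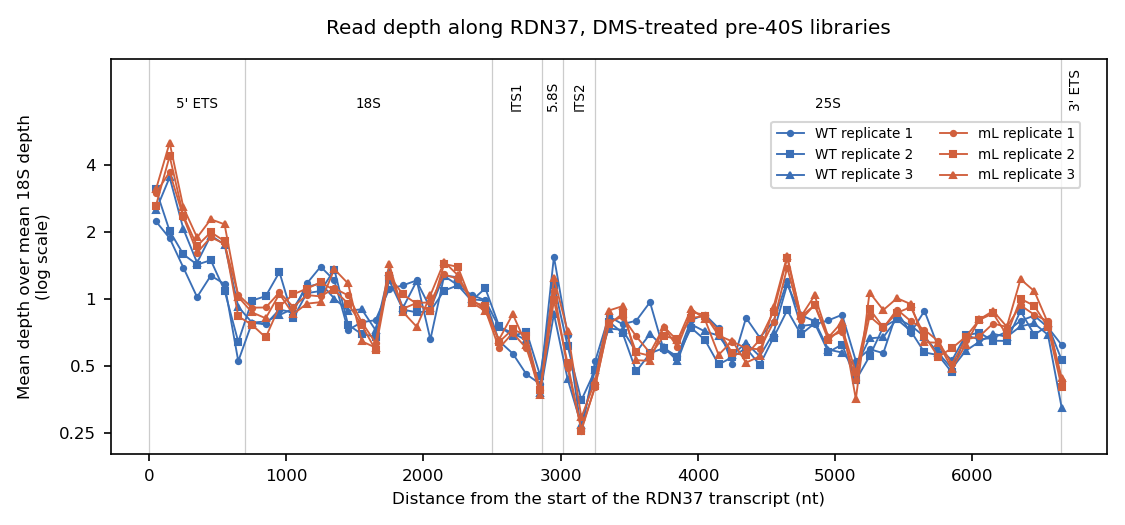
Mean effective depth of each 100 nt bin of RDN37 over the mean 18S depth of the same library, on a log axis, against distance from the transcript start. Blue lines are the 3 WT libraries and orange lines the 3 mL libraries; the mL lines lie above most WT points over the 5′ external transcribed spacer, and WT replicate 3 runs close to them.

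The depth profile of WT replicate 3 followed the mL libraries more closely than its own group. Over the 67 bins its log2 profile had a correlation of 0.912 to 0.964 with the mL libraries, 0.895 with WT replicate 2 and 0.843 with WT replicate 1. The mL libraries had 0.962 to 0.976 among themselves. The label pre-40S was checked against these reads. The 5′ external transcribed spacer and ITS1 were present, ITS1 at 0.501 to 0.661 times the 18S depth, as in early precursors. 25S was also present, at 0.652 to 0.793 times, and the 3′ external transcribed spacer was almost unread, at a mean depth of 0.0332 to 0.332 reads. None of its 89 A and C reached the depth minimum. Which particles the 25S reads came from was not tested.

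Steps of the depth at cleavage sites were taken as the mean depth of the 50 nt before a site over that of the 50 nt after it. At A1, the cut that makes the 5′ end of 18S, the step was 0.720, 0.780 and 1.08 with WT, against 1.13, 1.10 and 1.13 with mL. The groups did not overlap, though WT replicate 3 was near the mL values (log2 difference 0.41, n = 3, exact two-sided permutation p = 0.1). At D, the cut that makes the 3′ end of 18S, the step was 1.90, 1.63 and 1.62 with WT and 2.09, 2.14 and 2.48 with mL (log2 difference 0.38, exact p = 0.1). With 3 libraries a group no exact p can be below 0.1, and adjusted over 9 cleavage sites it was 0.3. A0 inside the 5′ external transcribed spacer and A2 inside ITS1 are, like A1, cuts known to need Rrp5. At both the groups overlapped, with log2 differences of -0.32 and -0.19 (exact p = 0.4 each). The groups also overlapped at B1, E, C2 and C1 in and around 5.8S and ITS2 (exact p = 0.6 to 0.8). B2 borders the nearly unread 3′ spacer and is not described. Among the others the step was separated at 0 sites with flanks of 25 nt and at 1 with 100 nt. With the flanks changed, the smallest log2 difference was -0.0045 at D and 0.13 at A1. Without DMS the step at D was 1.65, 1.92 and 1.70 with WT and 1.98, 1.66 and 1.94 with mL, where the groups overlapped.

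Before any scaling the overall mutation rates of A and C overlapped between the groups. The mean mutation rate of A was 2.00%, 2.32% and 2.65% with WT and 2.48%, 2.45% and 2.68% with mL (n = 3, exact permutation p = 0.4). That of C was 1.08% ± 0.076 and 1.07% ± 0.0452 (SD, n = 3, exact p = 1). Without DMS the same positions had 0.287% to 0.618% at A and 0.186% to 0.452% at C. The bases that DMS does not read this way were lower. G had 0.339% to 0.435% with WT and 0.4497% to 0.473% with mL, without overlap (exact p = 0.1), and without DMS it had 0.227% to 0.327% and 0.371% to 0.459%, also without overlap. U had 0.391%, 0.213% and 0.244% with WT and 0.216%, 0.180% and 0.164% with mL, where WT replicate 1 was highest (exact p = 0.2).

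Pooled over windows of 40 nt, the reactivity of A and C in the 5′ external transcribed spacer was lower with mL in all 18 windows. Their median log2 difference was -0.23, against -0.09 over all 165 windows. Of the 18, 7 had an unadjusted edgeR p under 0.05 and lay lower, and 6 were separated without overlap. Over all windows 14.5% had such a p, 12.7% lower and 1.82% higher with mL, and 21.8% were separated, 17.6% lower and 4.24% higher. In ITS1, the spacer in which Rrp5 acts, all 8 windows were lower, with a median of -0.24, and 3 were separated. In ITS2 all 6 were lower with a median of -0.10. A window is counted under the region of its first base, so some windows run into the next region. The window 5.8S 140 to ITS2 21, counted under 5.8S, was higher with mL (log2 change 0.13). The window ITS2 222 to 25S 29, counted under ITS2, was at -0.04. In 18S 30 of 45 were lower, and in 25S 47 of 84. By edgeR 0 windows (0%) were called at an adjusted p under 0.05, 24 had an unadjusted p under 0.05, and DESeq2 and limma also called none, with 14 and 18 at that level.

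These counts depend on the library factor and on WT replicate 1. With no library factor 11 of the 18 windows of the 5′ external transcribed spacer were lower and 7 higher, with a median of -0.05 against 0.10 over all windows. In ITS1 6 of 8 were then lower, and in ITS2 2 of 6. Without WT treated replicate 1, 14 of 18 were lower, with a median of -0.13 against -0.05. Windows also sum 1917 bases that had no test of their own, 1847 with too few mutations and 70 with a treated rate under 2 times the untreated one. The 1847 had a summed scaled rate of 0.592%, 0.539% and 0.542% with WT and 0.491%, 0.473% and 0.423% with mL, without overlap. The 70 had 7.44%, 4.23% and 3.802% with WT and 3.87%, 3.32% and 3.09% with mL, where WT replicate 1 was far above the rest and the groups overlapped. When windows summed tested sites alone, the median over 116 windows was 0.01, and 15 of 15 windows of the 5′ external transcribed spacer, 20 of 40 of 18S and 15 of 55 of 25S were lower.

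**Figure D2:**
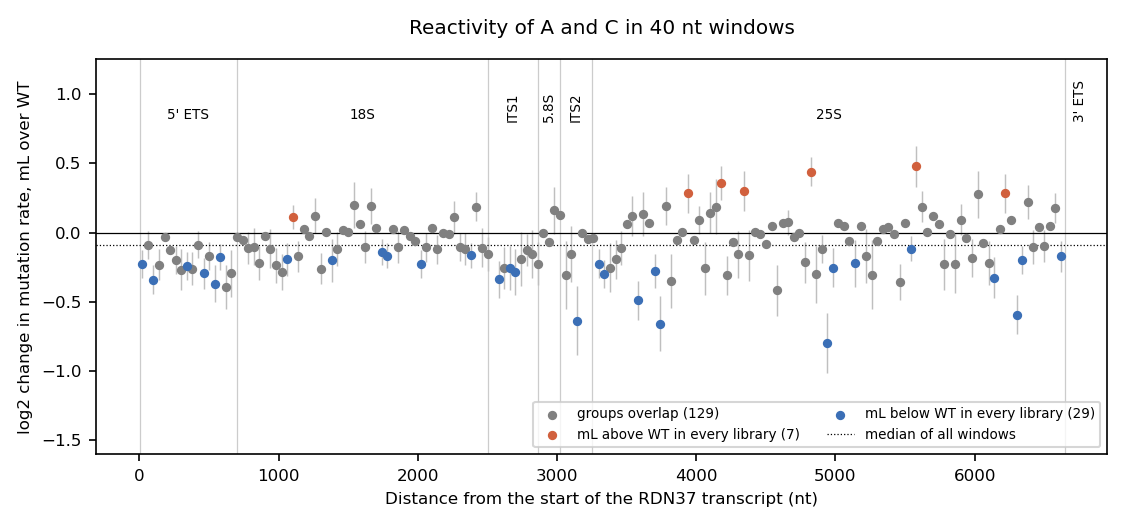
The log2 change in mutation rate, mL over WT, of the A and C in each 40 nt window of RDN37, against distance from the transcript start; bars are 1 SE from edgeR and the dotted line is the median of -0.09 over all 165 windows. All 18 windows of the 5′ spacer lie below 0, and the widest differences in both directions lie in 25S.

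Among separated windows the widest apart lay in 25S and ITS2. The window 25S 1550 to 1589 had a scaled rate of 1.19%, 1.18% and 1.20% with WT, against 1.70%, 1.52% and 1.67% with mL. The WT libraries were close together and all mL libraries above them (log2 change 0.44, SE 0.108, n = 3, edgeR adjusted p = 0.113). Of its 8 tested sites 6 were higher, and 2 of them without overlap, 25S A1580 and A1587 near its 3′ end in the sequence above. 25S A1580 went from 2.52% ± 0.963 to 5.27% ± 0.57 and 25S A1587 from 3.09% ± 0.278 to 5.69% ± 0.143 (SD, n = 3). The window 25S 3030 to 3069 differed the other way, at 1.81%, 1.79% and 1.52% with WT, against 1.16%, 1.24% and 1.02% with mL. Every mL library was below every WT library (log2 change -0.59, SE 0.143, edgeR adjusted p = 0.113). All 5 of its tested sites were lower and 3 were separated, among them 25S C3034 at 6.96% ± 1.86 with WT and 3.26% ± 0.801 with mL.

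The other separated windows with the largest rates above WT were in 25S, at 2310 to 2349 (log2 change 0.48), 910 to 949 (0.36), 1070 to 1109 (0.30) and 2950 to 2989 (0.28). In the window 25S 910 to 949 all 11 tested sites were higher with mL, although none was separated by itself. Below WT were 25S 1670 to 1709 (-0.80), 25S 470 to 509 (-0.66), ITS2 102 to 141 (-0.64) and 25S 310 to 349 (-0.49). Their edgeR adjusted p-values were 0.146 to 0.384. Of these lower windows 3 hold a base that was also mutated without DMS: C1698 in 25S 1670 to 1709, whose untreated rates as a window were 0% to 1.37%, C497 in 25S 470 to 509 and A318 in 25S 310 to 349. 25S C497 had 2.52% to 10.7% without DMS, and with DMS 8.83%, 1.69% and 0.826% with WT, against 0.704%, 1.10% and 0.833% with mL, where WT replicate 1 alone was high. 25S A318 had 3.56% to 8.47% without DMS, and 5.33% to 13.6% and 5.20% to 7.30% with it. The part of these bases in the window differences was not tested. The windows 25S 470 to 509 and 310 to 349 hold 2 tested sites each. Without WT treated replicate 1 the window 25S 310 to 349 was called by edgeR (adjusted p = 0.0416).

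Site by site, 3 of the 1124 bases passed the edgeR test, 0.267% of those tested, 1 higher (0.089%) and 2 lower (0.178%) with mL. An unadjusted p under 0.05 was found at 89 sites (7.92%), 43 of them higher (3.83%) and 46 lower (4.09%). The groups were separated at 137 sites (12.2%), of which 60 were higher (5.34%) and 77 lower (6.85%). The 3 called sites lay in 25S and in the 5′ external transcribed spacer, and their surroundings differed. DESeq2 called 0 with 24 at an unadjusted p under 0.05, and limma called 0 with 66. Leaving out mL treated replicate 3 gave 0 calls, WT treated replicate 1 gave 1, mL treated replicate 1 gave 1 and WT treated replicate 3 gave 5.

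25S A3336, near the 3′ end of the large-subunit RNA, was the called site that rose with mL. Before scaling it was mutated in 5.15%, 7.17% and 5.96% of reads with WT and in 10.7%, 13.5% and 18.6% with mL. All mL libraries were above all WT libraries, by a log2 change of 1.03 after scaling (SE 0.206, n = 3, edgeR adjusted p = 0.000584). Without mL treated replicate 3, the highest library, the change was 0.86 (edgeR adjusted p = 0.26). Its neighbour A3335 went the other way, at 16.6%, 10.5% and 10.1% with WT, against 8.56%, 11.1% and 5.93% with mL on the scaled rate (log2 change -0.54, edgeR adjusted p = 0.274). The rates of the pair added together were 18.9% ± 3.82 with WT and 21.8% ± 2.67 with mL (SD, n = 3), and these overlapped. The share of A3336 in that sum was 28.1%, 41.5% and 35.2% with WT and 54.7%, 54.2% and 73.6% with mL. A3335 was also mutated without DMS, in 2.20% to 8.05% of reads, and A3336 in 0% to 0.213%. Of the other 4 tested sites within 20 nt, A3335 included, 3 were higher.

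5ETS C454 lies between the stretches where U3, a small nucleolar RNA that guides the early cuts, pairs with the spacer, and fell with mL. Its unscaled rate was 14.5%, 15.4% and 14.9% in the WT libraries and 10.9%, 12.4% and 11.2% in the mL libraries. The groups were apart (log2 change -0.55, SE 0.136, n = 3, edgeR adjusted p = 0.0298). The next tested bases on both sides were also separated. 5ETS A453 had 6.87% ± 0.838 with WT and 5.05% ± 0.421 with mL on the scaled rate (log2 change -0.41). 5ETS A461 had 5.799% ± 0.641 and 3.38% ± 0.525 (log2 change -0.76), so all 3 bases of this stretch were lower. Sites A453, C454 and A461 form the longest row of neighbouring tested sites that were separated in 1 direction, and no other row reached 3. Over the wider surroundings the directions were mixed: of 13 other tested sites within 20 nt of C454, A453 and A461 included, 6 were higher and 7 lower, with a median of -0.03. With no library factor C454 was not called (log2 change -0.37, edgeR adjusted p = 0.452), and without WT treated replicate 1 it was -0.45 (edgeR adjusted p = 0.4).

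25S A1393 also fell with mL, at 3.88%, 3.05% and 4.67% of reads with WT and 0.935%, 1.93% and 2.36% with mL before scaling. The lowest WT library was above the highest mL library (log2 change -1.21, SE 0.311, n = 3, edgeR adjusted p = 0.0359). Without DMS 25S A1393 had 1.27%, 1.24% and 0.117% with WT and 0.119%, 0.528% and 0.684% with mL, where the groups overlapped. It stood alone: of the 8 other tested sites within 20 nt 7 were higher and 1 lower, with a median of 0.09. Without WT treated replicate 1 the change was -1.04 (edgeR adjusted p = 0.603), and of the fits that each left out 1 library 1 of 6 called it.

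Other rows of neighbouring separated sites were pairs, 10 in all. Of all tested sites 5.34% were separated higher and 6.85% lower with mL. How many rows of 2 or 3 these shares alone would give was not tested. In 18S, C160 and A162 were lower together. 18S C160 went from 3.27% ± 0.611 to 1.85% ± 0.568 and 18S A162 from 2.79% ± 0.318 to 1.04% ± 0.722 on the scaled rate (SD, n = 3). In the 5′ external transcribed spacer 3 pairs were lower, A169 with A175, A520 with A529 and A598 with C599, with median log2 changes of -0.61, -0.76 and -0.65. In 25S 5 pairs were higher and 1 lower. The higher pair with the largest median, 1.34, was A115 with A121, where A121 went from 1.61%, 0.848% and 1.16% with WT to 5.68%, 2.17% and 3.36% with mL. The lower pair was A3033 with C3034, inside the window named above.

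The largest differences among sites with an unadjusted p under 0.05, separated groups and a mean scaled rate of at least 1% were not called, apart from A1393. In the direction of mL, 25S A3307 differed by 1.79 (SE 0.52, edgeR adjusted p = 0.0941), at 0.632%, 1.27% and 4.19% with WT, against 7.02%, 7.76% and 4.51% with mL. 25S A121 had an adjusted p of 0.0941 too, while 18S A623 (1.33), 18S A544 (1.23), 25S A2956 (1.21), 25S A2458 (1.19), 25S A2762 (1.19), 25S A115 (1.17), 25S A2733 (1.15) and 25S A711 (1.11) lay between 0.263 and 0.6. In the direction of WT, 25S A603 differed by -1.45 (SE 0.451, edgeR adjusted p = 0.168), at 7.49%, 3.63% and 3.44% with WT, against 0%, 2.34% and 1.70% with mL. WT replicate 1 was the high library at this base. After it came 18S A162 (-1.28), 25S A2219 (-1.15), ITS1 A149 (-1.10), 25S C3034 (-1.05), 18S C263 (-1.03), 25S A951 (-0.99), 18S C1537 (-0.94) and 18S C305 (-0.92), with adjusted p of 0.257 to 0.599. ITS1 A149, between the end of 18S and the A2 cut, had 7.65%, 9.39% and 5.95% with WT and 3.98%, 4.11% and 2.74% with mL.

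**Figure D3:**
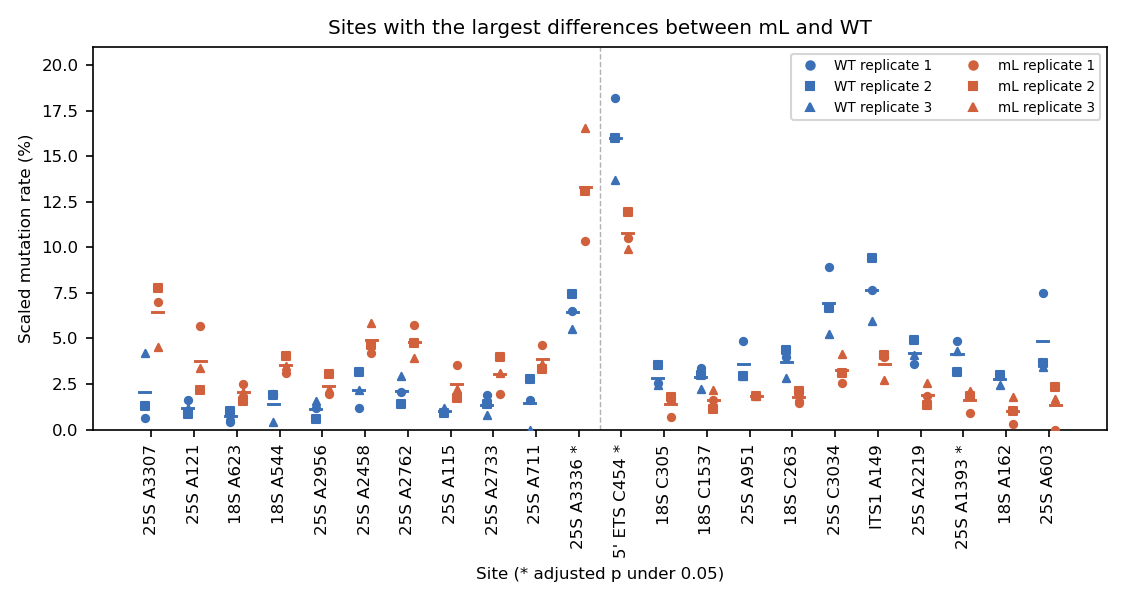
Scaled mutation rate (%) of the sites with the largest differences between mL and WT, each library as a point and each group mean as a bar; stars mark the 3 sites with an adjusted p under 0.05. Sites left of the dashed line are higher with mL, ending with 25S A3336, and those to its right are lower, starting with 5ETS C454.

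Of all tested sites 50.3% were lower with mL, and the spacers are set beside that share. In the 5′ external transcribed spacer 103 of 149 were lower, with a median log2 change of -0.17. Of 63 sites from A11 to A280, ahead of the first U3 pairing stretch, 47 were lower. The scaled rate summed over all A and C of that stretch, tested or not, was 2.21%, 1.91% and 1.80% with WT and 1.83%, 1.70% and 1.63% with mL, and the groups overlapped (n = 3, exact permutation p = 0.2). Between the U3 pairing stretches, A295 to C469, 32 of 50 were lower, and the sum was 2.62% ± 0.43 and 2.19% ± 0.046 without overlap (SD, exact p = 0.1). In the first U3 stretch the one tested base, 5ETS A283, had 9.85%, 9.21% and 6.80% with WT and 7.39%, 5.54% and 5.97% with mL, where WT replicate 3 overlapped mL. From A482 to A603, up to the A0 cut, 15 of 25 were lower, and from C618 to A671, between A0 and A1, 3 of 4. In ITS1 21 of 25 sites up to A2 were lower and 8 of 14 past it, with summed rates of 1.88% ± 0.355 against 1.60% ± 0.0368 and 2.09% ± 0.363 against 1.89% ± 0.119 (exact p = 0.4 and 0.5). With no library factor 70 of 149 sites of the 5′ external transcribed spacer were lower, with a median of 0.02 against 0.20 over all sites. Without WT treated replicate 1, 90 of 149 were lower (median -0.06). Of the 35 regions, domains and stretches summed in this way 8 were separated, 22.9%, all of them lower with mL, and with no library factor 1. On the mean log2 rate over tested sites alone, the separated sets went both ways. Higher with mL were 25S domain III (log2 difference 0.09, against -0.10 in the sum) and the 18S 3′ minor domain (0.11). Lower were the 5′ external transcribed spacer (-0.19), its parts A11 to A280 and A482 to A603, ITS1 up to A2 and around A2. Whole 25S overlapped there (0.05). Some of these sets hold others.

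Within 18S 199 sites were lower and 195 higher, and none was called by edgeR. Summed over all its A and C, tested or not, 18S had 1.89% ± 0.0379 with WT and 1.82% ± 0.0214 with mL (SD, n = 3), and these were separated (exact permutation p = 0.1). Summed over the 394 tested sites alone it had 3.07%, 3.19% and 3.20% with WT, against 3.16%, 3.15% and 3.23% with mL, which overlapped. In the 5′ domain, which forms the body of the small subunit, 79 sites were lower and as many higher. In the central domain, the platform, it was 43 of 90. In the 3′ major domain, the head, it was 60 of 106, and in the 3′ minor domain 17 of 40. Helix 44, part of the decoding centre, had 12 of 27 lower and summed rates of 2.32%, 2.38% and 2.45% with WT, against 2.43%, 2.36% and 2.38% with mL. The groups overlapped (n = 3, exact permutation p = 0.9). The central pseudoknot strand that U3 keeps open during assembly had 4 of 11 lower, its partner at the 5′ end of 18S 2 of 5, and the stretch that pairs with U14 3 of 5. Helix 18 with the loop near the decoding centre had 9 of 17 lower, expansion segment 6, where assembly factors bind, 10 of 20, and the stretch that pairs with snR30, a small nucleolar RNA needed for the early cuts, 2 of 4. Around A974 and U999, modified in 18S under the guidance of snR54 and snR31, 6 of 7 and 5 of 10 were lower. The summed rate around A974 pointed the other way, at 1.74% ± 0.132 with WT and 2.03% ± 0.365 with mL, and the groups overlapped there and around U999 (exact p = 0.3 and 1). At the U14 and snR30 stretches the summed rate was also higher with mL, by 0.02 and 0.17 on the log2 scale, while the median of the tested sites was -0.17 and -0.05. All 35 summed sets had an adjusted p of at least 0.438.

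Depth bounds how large a difference pooled over an 18S window could have been missed. Of the 45 windows of 18S, 29 had an SE that can be read as a width. All of their 95% intervals lay between -0.57 and 0.56 on the log2 scale. The other windows have no interval here. An interval for a window does not bound its single bases: 18S 141 to 180 differed by -0.22, while A162 inside it differed by -1.28. Single sites were less precise. At the 575 of 1124 whose SE can be read in this way the median SE was 0.4, and 127 of the 575 had an interval within a log2 change of 1. Sorted into low, middle and high classes of equal size by their rate in DMS-treated mature ribosomes of the laboratory strain BY4741, 18S sites had median log2 changes of -0.039, 0.025 and -0.003. The same classes of 25S had 0.06, 0.09 and 0.09. By base, A had a median of 0.01 and C of -0.045.

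**Figure D4:**
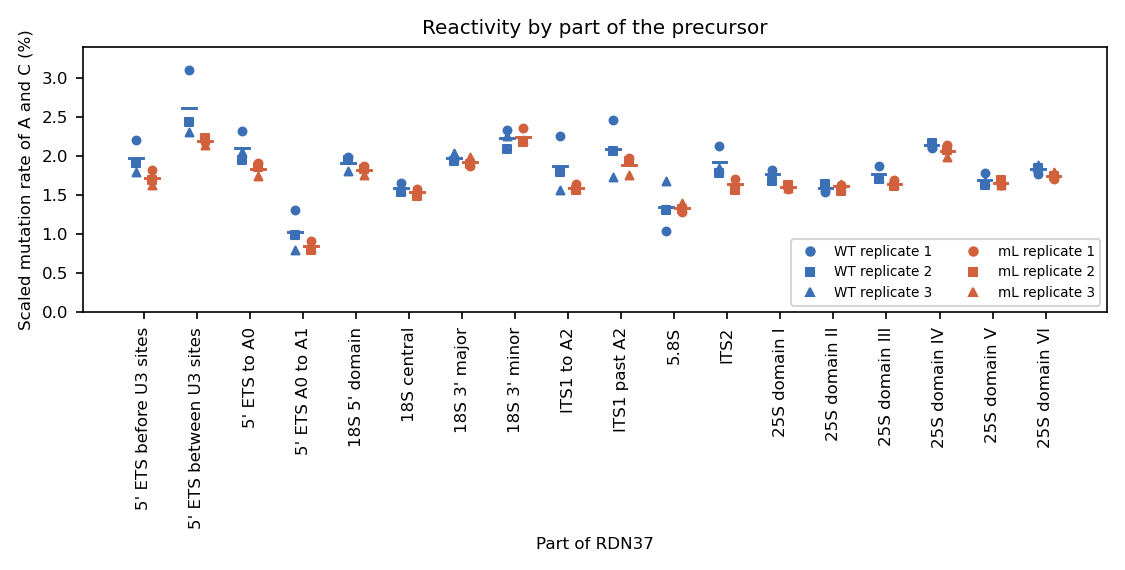
Scaled mutation rate (%) summed over the A and C of each part of RDN37, with each library as a point and each group mean as a bar, on an axis from 0. WT replicate 1 is the highest library in the parts of the 5′ spacer and in ITS1, while the 18S domains of mL and WT lie within a narrow range.

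Bases that carry natural modifications in mature ribosomes were read in the same way; their rates are DMS mutation rates and not levels of a modification. 18S A1781 and A1782, the neighbouring adenines that Dim1 dimethylates late on the precursor, had 3.23% ± 0.615 and 5.07% ± 0.715 with WT and 4.47% ± 2.22 and 4.84% ± 0.546 with mL (SD, n = 3). The differences of 0.25 (SE 0.305) and -0.01 were not called (edgeR adjusted p = 0.897 and 0.996). 18S A974, the 2′-O-methylation target of snR54, had 22 mutations in all and no test. It stood at 1.02%, 1.31% and 0% with WT, against 3.83%, 2.04% and 1.32% with mL, separated by a small margin. The 1-methyladenosines of 25S, which block base pairing without DMS, were also mutated in the untreated libraries, so their rates are given unscaled. 25S A645 had 58.5% ± 4.28 with WT and 62.3% ± 5.49 with mL (SD, n = 3), and the groups overlapped. 25S A2142 had 42.6%, 50% and 42.6% with WT, against 55.2%, 53.5% and 65.9% with mL, and these were separated. Without DMS A2142 had 51.7% to 63.0% with WT and 58.9% to 70.4% with mL, where the groups overlapped. On the scaled rate A2142 overlapped too, at 48.3% ± 7.84 and 54.5% ± 3.70. The scaled rate of A645 had a lower mean with mL, at 63.3% ± 14.6 and 58.4% ± 2.33, but the groups overlapped and WT replicate 1 was highest. The N4-acetylcytidine 18S C1280 had a scaled rate of 1.56% ± 0.645 with WT and 1.75% ± 1.07 with mL.

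The 6 tested bases with the highest mean scaled rate with WT were taken in each of 6 regions, 36 in all. Of them 7 were separated, all lower with mL. Of all tested sites 12.2% were separated, 6.85% lower and 5.34% higher. Choosing bases by their WT rate favours those that look lower with mL, so no direction is read from this count. 25S C2306 had 59.0% ± 5.47 with WT and 59.4% ± 2.25 with mL, and 0.203% to 2.94% without DMS. ITS1 A133 had 25.6% ± 6.57 and 23.8% ± 0.319, 18S A1712 had 20.5% ± 2.44 and 20.2% ± 2.29, 5ETS A405 had 14.5% ± 0.924 and 14.2% ± 0.942 and ITS2 A198 had 11.8% ± 2.07 and 12.5% ± 3.03 (SD, n = 3). At these 5 bases the groups overlapped. 18S A1671, the most reactive tested base of 18S with WT, had 21.1%, 20.8% and 21.2% with WT, against 19.2%, 18.8% and 15.5% with mL. The groups were separate there, with a log2 change of -0.24 (SE 0.156, edgeR adjusted p = 0.781).

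A further 70 bases had enough mutations but a treated rate under 2 times the untreated one. Of them 24 lay in 18S, 36 in 25S and 7 in the 5′ external transcribed spacer. In a fit that included them, edgeR called 12 of the 70 lower and 1 higher with mL, where 1.17% of the 1194 sites of that fit were called lower and 0.335% higher. Of the 70, 58 were lower, with a median log2 change of -0.58. These values rest on a library factor set on the tested sites: with no factor edgeR called 5 lower and 1 higher, 48 were lower, and the median was -0.34. 25S C1698 was mutated with DMS in 32.4%, 11.6% and 16.8% of reads with WT and in 8.67%, 9.19% and 5.49% with mL. Without DMS it had 0%, 24.2% and 6.03% with WT and 11.02%, 19.6% and 9.17% with mL, and there the groups overlapped. 5ETS C400 had 7.71%, 8.70% and 6.74% with WT and 2.98%, 2.58% and 2.96% with mL, a wide gap with DMS. Without DMS it had 0%, 9.30% and 1.82% with WT and 3.06%, 4.45% and 4.71% with mL. 18S C956 was the higher site, and mL replicate 3 alone was high, at 15.96% against 0% to 2.17% in the other treated libraries.

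WT replicate 1 stood highest over these bases. Their median rate was 4.63% in WT replicate 1, 2.96% and 3.17% in WT replicates 2 and 3, and 2.92%, 2.76% and 2.60% with mL. Without WT treated replicate 1 edgeR called 1 of them lower and 1 higher, with a median log2 change of -0.17, and without the other libraries in turn 2 to 14 were lower. Without DMS the medians were 1.38%, 5.41% and 1.83% with WT and 2.65%, 3.96% and 2.44% with mL. Whether the rates at these bases come from DMS was not tested.

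**Figure D5:**
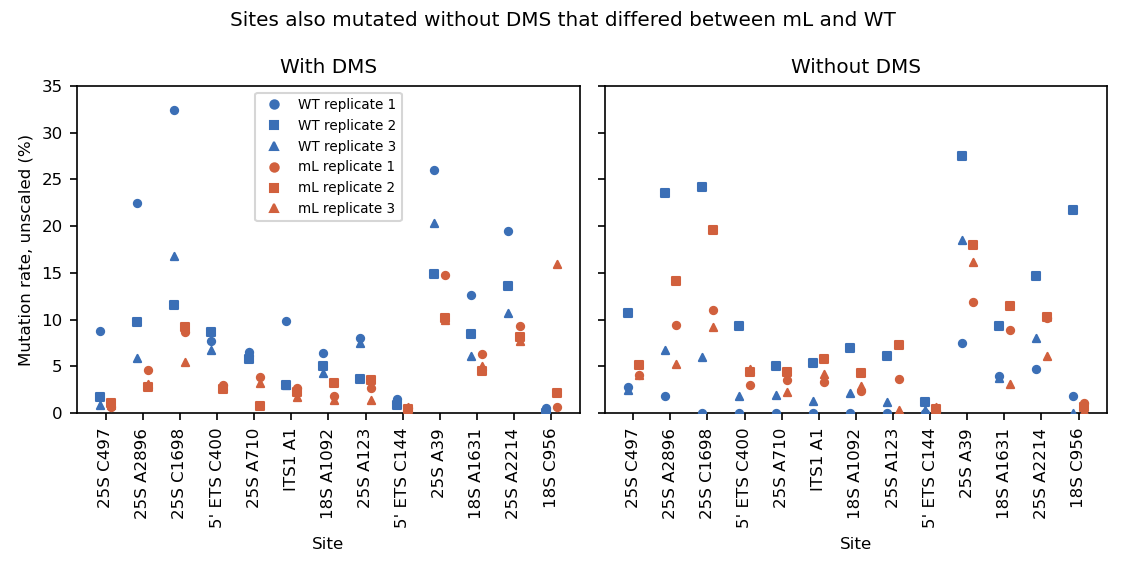
Unscaled mutation rate (%) of the 13 called sites that were also mutated without DMS, with DMS at left and without at right, each library as a point. With DMS every WT point lies above every mL point at 10 of the 13 sites and WT replicate 1 is the highest library at 11, while without DMS the groups mix at most sites.

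The windows were also compared with and without DMS in 1 fit over 12 libraries. By edgeR the group by DMS interaction was called in 2 of 163 windows (1.23%), with 17 (10.4%) at an unadjusted p under 0.05. Between the untreated groups 0 windows (0%) were called.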

How the data were processed

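DMS-MaPseq profiles of 12 pre-40S libraries were used, 6 with DMS and 6 without, and 3 treated BY4741 libraries for mature rates. Per the file headers, each deposited profile gives, per RDN37 nucleotide, counts of mutated reads and of effective depth, and the fraction the authors made by dividing them (equal within 5e-07). Per the submitters' processing notes reads were mapped with Bowtie2; no source used here names the mutation caller, filters or build. Per the labels' protocols reads were single-end, 100 bp long. No molecular identifiers are mentioned, so errors cover counting and library spread only.

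Mutation counts were tested with edgeR 4.0.16 (quasi-likelihood, R 4.3.3) with log effective depth plus log library factor as offset, at sites and in 40 nt windows with at least 5 members and 100 mutations. Log2 depth ratios were tested with limma 3.58.1. Adjusted p-values are Benjamini-Hochberg over all features of a test, called under 0.05. An edgeR SE was taken as the absolute log2 change divided by sqrt(F), and was read as a width where F is over 0.5. Regions, domains, cleavage steps and base rates were tested by exact two-sided permutation over libraries. DESeq2 1.42.0 was an alternative. The scripts were tested on simulated counts. Named sites are the called ones, the 10 largest rises and falls at an unadjusted p under 0.05 with separated groups and a mean scaled rate of at least 1%, and the modified bases; named windows are the 5 largest each way among separated ones, and named bins the 3 largest each way. Sites just described beside a called one, the pairs, the bases most reactive with WT, and the 70 bases below the ratio of 2 were chosen after their values were seen. The members, the depth minimum of 50, the lists and the tests were chosen with earlier results of these data known. The series design calls the replicates biological. Region bounds follow the RDN37 features of assembly R64 in the RefSeq gene table; domain, helix and snoRNA stretches were set by hand and their edges are approximate. No chromosome coordinates are given, since no build is named.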

Additional observations from a re-analysis of the deposited data

Results flagged for a closer look

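In 2 windows of 18S the difference between mL and WT was not the same with and without DMS, by the edgeR test of the group by DMS interaction over 163 windows and 12 libraries. For 18S 141 to 180 the interaction was -2.79 on the log2 scale (n = 3 a group, edgeR adjusted p = 0.0157). With DMS the window had 1.69%, 2.12% and 1.88% with WT and 1.81%, 2.01% and 1.80% with mL before scaling. Without DMS it had 0%, 0.023% and 0.0774% with WT and 0.0934%, 0.0611% and 0.257% with mL, from 0, 21 and 7 mutations and from 7, 4 and 29. For 18S 741 to 780 the interaction was -1.99 (edgeR adjusted p = 0.0474). With DMS it had 1.15%, 1.45% and 1.23% with WT and 1.34%, 1.49% and 1.57% with mL. Without DMS it had 0%, 0.0608% and 0.0692% with WT and 0.246%, 0.0815% and 0.324% with mL. In both windows the treated rates of the groups overlapped, and each untreated rate rests on at most 29 mutations. With each of the 12 libraries left out in turn, an alternative chosen after seeing the data, 0 to 9 windows were called. The count was 0 without WT treated replicate 2, mL treated replicates 1 and 3, WT untreated replicate 2 or mL untreated replicates 1 and 3. It was 1 without WT treated replicate 1, mL treated replicate 2 or WT untreated replicate 1. The highest count, 9, came without WT untreated replicate 3.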

How the results depend on the processing

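The 3 called sites became 1 with at least 10 mutations, 1 with no minimum of mutations, 17 with no ratio to untreated, 1 with no library factor, 5 with a factor from 25S, 0 by DESeq2 with the same offsets, 0 by DESeq2 with its own size factors and 0 by limma. With a library left out in turn they were 0 to 5. A depth minimum of 20, 100 or 200 and a factor from 18S left 3. Of the 70 bases also mutated without DMS, 12 were called lower with the library factor, 5 with no factor and 1 to 14 with a library left out. The 0 called windows became 1 with a factor from the windows themselves, an alternative chosen after seeing the data, and 0 to 1 with a library left out. The 1 called depth bin became 0 with the mean of all positions as reference, 3 with the median of 18S, 0 with the mean of 25S, 0 in bins of 50 nt, 3 in bins of 200 nt and 0 to 10 with a library left out. With read depth in place of effective depth 1 bin was called. The bin 5ETS 1 to 100 turned to -0.005656 with all positions as reference. The 2 windows of the interaction became 0 to 9 with a library left out. The 8 separated sets became 1 with no library factor and 7 to 17 with a library left out. With the mean log2 rate over tested sites the separated sets went both ways. The 2 separated cleavage steps became 0 with flanks of 25 nt, 1 with 100 nt and 2 to 4 with a library left out. The 1 separated base rate, G, became 1 to 2. Leaving out a library leaves fewer samples.

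Replicate numbers are shared between groups. The deviations of same-numbered libraries from their group means had correlations of 0.194, -0.075 and 0.21 over windows. Over depth bins these were 0.22, -0.438 and 0.023. Libraries of unlike number had -0.275 to 0.104 over windows and -0.366 to 0.415 over depth bins. With a replicate block edgeR called 1 site, 0 windows and limma 4 bins. The signs were mixed and the numbers are not taken as pairs, though these values do not settle whether they are.

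Depth limits single sites, with a median of 58 mutations over 6 libraries, more than windows, with 642.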

Other observations

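Without DMS the start of 18S was read far more deeply than the rest of it. The bin 18S 1 to 100 had 8.04, 15.1 and 5.52 times the mean 18S depth with WT and 5.89, 4.60 and 3.403 times with mL. In the treated libraries it had 0.781, 0.984 and 0.783 times with WT and 0.914, 0.765 and 0.870 times with mL. The groups overlapped both without and with DMS. The step of depth at A1 was 0.000789 to 0.135 without DMS, against 0.720 to 1.13 with it. The mean 18S depth of an untreated library holds this start.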
